A study of Mus musculus with 2 samples.

Results

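The 9 genes examined here belong to macrophage itaconate, nitric oxide and arginine metabolism and were measured in nucleoplasmic RNA (in usual practice, nuclear RNA outside the chromatin pellet) of mouse bone-marrow-derived macrophages. The genes were taken by symbol: Acod1, Nos2, Arg1, Arg2, Ass1, Asl, Slc7a2, Gch1 and Odc1. All 9 were matched among the 55536 annotated genes of the deposited tables. The cells were primary macrophages of the C57BL/6J strain that had received Lipid A, the part of bacterial lipopolysaccharide that Toll-like receptor 4 recognises, at 100 ng/ml for 60 min. Ribosomal RNA was depleted before sequencing. The series held 1 group of 2 biological replicates with the same donor label, and the library of replicate 1 was begun with 1 µg of nucleic acid, that of replicate 2 with 500 ng. Sex and age were not collected, per the labels. Unstimulated cells, other fractions and other times were not analysed here, so the values are levels after stimulation and no gene is described as induced.

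Acod1 encodes the mitochondrial enzyme that makes itaconate from the citric acid cycle intermediate cis-aconitate, and itaconate restrains succinate dehydrogenase. Nos2, the inducible nitric oxide synthase, turns arginine into nitric oxide and citrulline and needs tetrahydrobiopterin, whose synthesis begins with the product of Gch1. Arginases compete for the same arginine and release ornithine, from which Odc1 starts the synthesis of polyamines, while Ass1 and Asl rebuild arginine from citrulline. In mouse macrophages Acod1 and Nos2 are known as genes of the inflammatory state and Arg1 as a gene of the alternatively activated state.

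The gene tables held 21115765 expected counts on annotated genes in replicate 1 and 15607391 in replicate 2. All 8 macrophage markers examined reached 10 TPM (the share of transcripts after correction for length) in each library, with summed TPM of 3894 and 3481. All 5 hepatocyte markers, which mark the cells where the urea cycle runs, and all 3 T cell markers were at 0 counts in both libraries. The 7 neutrophil markers summed to a TPM of 4.69 and 2.72 and the 3 B cell markers to 0.28 and 0.21. The 3 endothelial markers summed to 5.25 and 2.51, and the 4 fibroblast markers to 0.11 and 0.24. Of the endothelial sums Kdr alone made 4.90 and 2.42, from 649 and 302 expected counts, while Cdh5 and Tie1 had at most 8 counts. The nuclear RNA Malat1 had a TPM of 21601 and 17299.6, and the mitochondrial genome, whose RNA lies outside the nucleus, took 5.10% and 6.17% of TPM. The part of RNA from outside the nucleus in the levels of the 9 genes was not tested. In such bulk samples, fewer cells that express a gene and less RNA per cell cannot be told apart.

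The set spanned almost the whole range of expression. Of the 9 genes, 6 reached 1 TPM in each library (Acod1, Odc1, Gch1, Asl, Slc7a2 and Arg2), against 39.2% of the 22015 nuclear-encoded protein-coding genes, and 3 reached 10 TPM, against 14.4%. The median of log2(TPM + 1) over the 9 genes was 2.04 in replicate 1 and 1.53 in replicate 2, against 0.36 and 0.29 over all these protein-coding genes. Acod1 alone held 77.6% of the summed TPM of the 9 genes in replicate 1 and 70.5% in replicate 2. The labels name separate biological replicates of 1 donor label, and no test between groups was possible with 1 group.

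**Figure D1:**
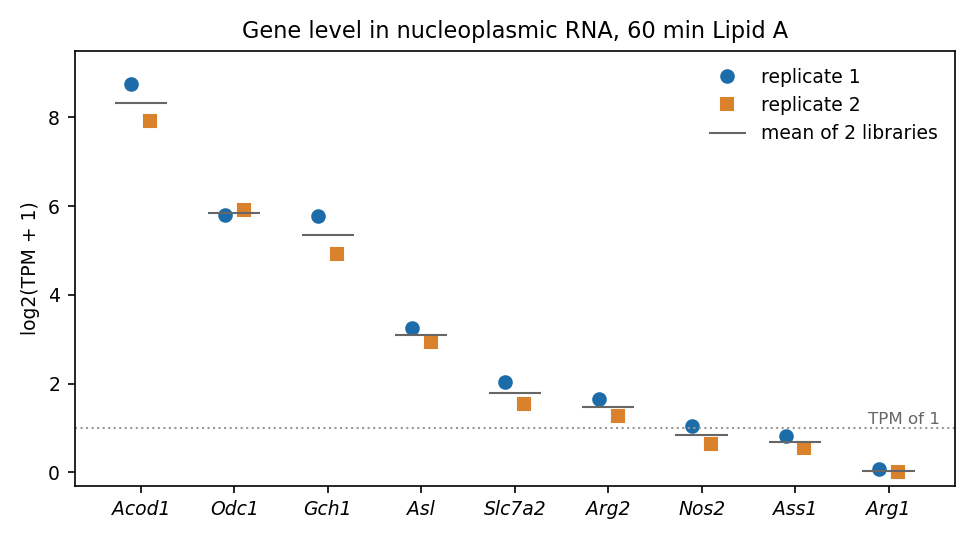
Levels of the 9 genes as log2(TPM + 1), with a circle for replicate 1, a square for replicate 2 and a line at their mean, in falling order of mean TPM. Acod1 lies apart at the top, and Nos2, Ass1 and Arg1 lie at or below a TPM of about 1.

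Acod1 was the most abundant member. Its level was 429 TPM in replicate 1 and 239 TPM in replicate 2, from 25258 and 13372 expected counts, or 334 ± 134 (SD, n = 2). It ranked 62 and 99 among the 22015 protein-coding genes. Acod1 was thus 7.90 times the next gene, Odc1, in TPM in replicate 1 and 4.0 times in replicate 2. The gene lies on chromosome 14 from 103046977 to 103056573 on the plus strand (mm10) and has a single annotated transcript, so all its counts fell on that spliced form. Its promoter is shown because it is the start of the highest gene of the set. The sequence is that of RefSeq on GRCm38.p6 (chr14:103046762-103047061, plus strand), from 250 bases before to 50 after the RefSeq start, and capitals mark a TATAAA match.
Acod1 promoter: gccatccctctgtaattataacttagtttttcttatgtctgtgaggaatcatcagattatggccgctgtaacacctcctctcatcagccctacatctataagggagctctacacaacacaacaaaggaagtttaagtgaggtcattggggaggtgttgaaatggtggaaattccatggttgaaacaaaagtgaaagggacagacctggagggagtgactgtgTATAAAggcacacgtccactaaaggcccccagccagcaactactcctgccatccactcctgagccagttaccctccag
The match lay at positions -28 to -23 from the RefSeq start, and the start annotated in GENCODE M21 lies 35 bases further upstream. TATAAA was present on either strand in 13.6% of the 32851 promoters of that table. In the same table were Gch1, Odc1 and Ass1. The other motifs searched on both strands were the NF-κB consensus, the core motif of interferon regulatory factors, TGACTCA and TGAGTCA of AP-1, TGACGTCA, TTGCNNAA of C/EBP factors and the E-box CACGTG. None of these letters was found in the Acod1 or Odc1 window. Gch1 held 1 match to the NF-κB consensus, present in 8.46% of promoters. It also held 1 to TATAAA, which reads TTTATA and lies at positions -188 to -183, unlike the match of Acod1. Ass1 held 1 CACGTG, present in 7.15%.

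Nos2, by contrast, was among the lowest of the set. Only 104 expected counts in replicate 1 and 53 in replicate 2 fell on it, with 95% Poisson intervals of 85.0 to 126 and 39.7 to 69.3 that cover counting error only. Its TPM was 1.07 in replicate 1 and 0.57 in replicate 2, which ranked 9037 and 9716 among the 22015 protein-coding genes. The genes of the enzymes that make itaconate and nitric oxide thus stood far apart in RNA level. On the log2(TPM + 1) scale Acod1 exceeded Nos2 by 7.70 in replicate 1 and by 7.26 in replicate 2, or 7.48 ± 0.31 (SD, n = 2). Nos2 lies on chromosome 11 from 78920787 to 78960254 (mm10).

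The cofactor gene Gch1, which encodes GTP cyclohydrolase 1, was well above the gene of the synthase it serves. Gch1 stood at 54.0 TPM in replicate 1 and 29.5 TPM in replicate 2, from 3796 and 1988 expected counts, or 41.8 ± 17.3 (SD, n = 2). Relative to Nos2 this was higher by 4.73 and 4.28 on the log2(TPM + 1) scale. Both libraries therefore placed the cofactor gene above the synthase gene by more than the spread between them.

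Genes that supply arginine were at low to intermediate levels. Slc7a2, which encodes a cationic amino acid transporter of the plasma membrane, stood at 3.10 and 1.89 TPM in replicates 1 and 2, from 430 and 270 expected counts. Asl, the lyase that completes the making of arginine, had 8.61 and 6.60, from 313 and 211 expected counts. Ass1, the synthetase that acts just before it on citrulline, had only 0.75 and 0.47, from 20 and 11 expected counts with 95% Poisson intervals of 12.2 to 30.9 and 5.49 to 19.7. The genes of this short pathway were therefore unequal in RNA level. Asl was higher than Ass1 by 2.46 and 2.37 on the log2(TPM + 1) scale. The processed pseudogene Gm5424 matches Ass1 over 1240 bases at 99.5% identity and was listed at 0 counts in both libraries.

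Of the arginase genes, Arg2, for the mitochondrial enzyme, was detected at a low level, and Arg1, for the cytosolic enzyme, was near 0. Arg2 stood at 2.15 and 1.43 TPM in replicates 1 and 2, from 64 and 40 expected counts. The 95% Poisson intervals of these counts were 49.3 to 81.7 and 28.6 to 54.5. For Arg1 there were 2 expected counts in replicate 1 and 0 in replicate 2, with 95% Poisson upper limits of 7.22 and 3.69 counts. In this gene table it was not detectable in replicate 2 at this depth, where the limit set by 3 counts is 0.192 CPM (counts scaled to the total on annotated genes). The second transcript table, by another quantification, gave 3 and 11 estimated counts, so the call for replicate 2 holds for the gene table alone. On the log2(TPM + 1) scale Arg2 exceeded Arg1 by 1.57 and 1.28. The last exon of Arg2 overlaps the gene Vti1b on the opposite strand over 285 of its 1428 transcript bases, and the antisense gene Gm48780 covers 116 more. Whether the counting used strand was not stated, and the division of reads between these genes is uncertain.

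Odc1, the gene of ornithine decarboxylase, was second to Acod1 in mean TPM over all its transcripts. Odc1 stood far above the genes of the arginases that supply the substrate of its enzyme. Its TPM was 54.3 in replicate 1 and 59.8 in replicate 2, from 1682 and 1694 expected counts, or 57.0 ± 3.86 (SD, n = 2). Odc1 exceeded Arg2 by 4.13 and 4.64 on the log2(TPM + 1) scale. Transcripts of 7 other genes match Odc1 over at least 200 bases at 95% identity or more. Of these, AW146154, a match on the opposite strand, held 85.5 and 69.9 expected counts and the processed pseudogene Gm17709 held 40.6 and 28.7, while the remainder held at most 8.0, so the value of Odc1 is uncertain to that extent.

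In order of mean TPM the genes were Acod1, Odc1, Gch1, Asl, Slc7a2, Arg2, Nos2, Ass1 and Arg1. Each neighbour held its place in both libraries, although the ranges over the libraries overlapped for Slc7a2 with Arg2 and for Nos2 with Ass1, which differed within a library by 0.38 and 0.25 and by 0.24 and 0.09 on the log2(TPM + 1) scale. In the second transcript table deposited by the authors Nos2 stood above Arg2 in both libraries, so the order of that pair depends on the table. Odc1 and Gch1 were almost level in replicate 1, at a TPM of 54.3 and 54.0, and apart in replicate 2, at 59.8 and 29.5. By distance in log2(TPM + 1) over both libraries, the protein-coding genes nearest in level to Acod1 were Iqgap1 (distance 0.073, TPM 417 and 249.5) and Ikbke (0.140, TPM 389.6 and 235). For Odc1 they were Ube2n (0.119) and Ppp1r10 (0.132), and for Gch1 Eid3 (0.035) and Ggnbp2 (0.038). With 2 libraries such likeness is one of level alone.

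The libraries differed in their level of these genes, and TPM needs a correction for that comparison. TPM was higher in replicate 1 for 5 of the 6 genes that reached 1 TPM in each library, beside 88.9% of the 8622 such protein-coding genes, whose median log2 ratio of replicate 1 over replicate 2 was 0.42. Counts were therefore compared after TMM normalisation, which assumes that most genes do not differ. Of the 9 genes, 7 had a mean of at least 50 counts. The deposited TPM intervals of the libraries did not overlap for 3 of these, Acod1, Gch1 and Slc7a2, beside 45.2% of all 10088 genes compared. For Acod1 and Gch1 the intervals lay below the TPM given above, at 404 to 414 and 223 to 231 for Acod1. They are thus not intervals around that TPM. After normalisation none of the 7 differed by more than 2-fold between the replicates, beside 1.18% of the 10088 genes. The median absolute log2 ratio of the 7 was 0.42 against 0.18 over all genes compared. Only Acod1, Nos2, Gch1 and Odc1 were wider than the typical gene. Ratios as large as those of Arg2, Slc7a2 and Asl were found for 50.7%, 50.9% and 78.4% of genes.

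Acod1 and Gch1 were higher in replicate 1 and Odc1 was higher in replicate 2. The log2 ratio of replicate 1 over replicate 2 was 0.42 for Acod1 (95% counting interval 0.39 to 0.45) and 0.44 for Gch1 (0.36 to 0.52). That of Odc1 was -0.50 (-0.60 to -0.41), so the small SD of its TPM hides a difference after normalisation. Ratios as large in either direction were found for 15.5% of all genes compared in the case of Acod1, 14.4% for Gch1 and 10% for Odc1. The ratio of Nos2 was of similar size, 0.47, but its counting interval of -0.01 to 0.98 reached 0. Arg2, Slc7a2 and Asl differed by 0.18, 0.18 and 0.07, with intervals that included 0. The replicates also differed in starting amount, and an effect of amount cannot be told apart from the difference between the cultures.

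**Figure D2:**
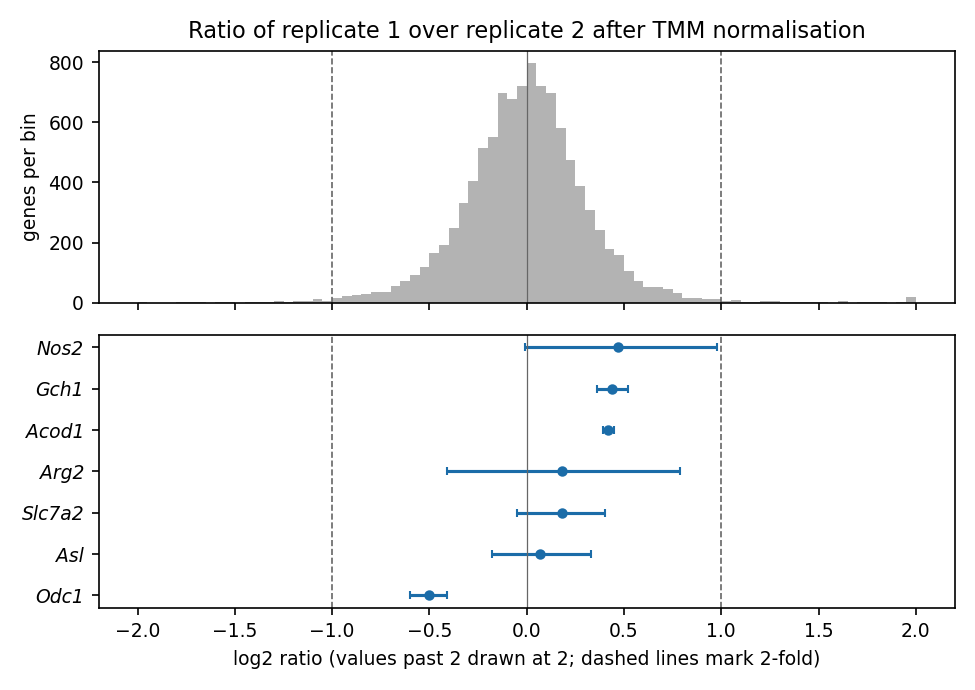
Log2 ratio of replicate 1 over replicate 2 after TMM normalisation, as a histogram of all 10088 genes with a mean of at least 50 counts (upper panel) and for the 7 members among them (lower panel), whose bars are 95% exact intervals for counting error only. Odc1 lies below 0, Acod1 and Gch1 lie above it with narrow intervals, and no member passes the dashed lines at 2-fold.

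Much of the RNA of Gch1 and Odc1 was assigned to transcripts that are not annotated as protein-coding. For Gch1 the share of expected counts on such transcripts was 49.4% in replicate 1 and 52.6% in replicate 2, and for Odc1 it was 39.5% and 47.4%. Over 8616 protein-coding genes that reached 1 TPM in each library the median share was 11.4% and 11.0%. Shares as large as that of Gch1 were found in 14.4% and 13.9% of these genes, and as large as that of Odc1 in 20.3% and 16.6%. By TPM the share was 43.1% and 46.3% for Gch1 and 61.6% and 67.8% for Odc1, against medians of 26.6% and 25.4%. On that measure 30.1% and 27.4% of genes had shares as large as that of Gch1, so Gch1 was less unusual. For Odc1 they were 12.8% and 10.2%. By counts, Asl had 15.7% and 20.7%, but 32.2% and 39.2% in the second transcript table. Ass1 had 13.6% and 9.09%, from fewer than 3 counts in each library. Acod1, Arg2 and Slc7a2 have no annotated transcript of another type, so a share of 0 says nothing of their splicing.

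**Figure D3:**
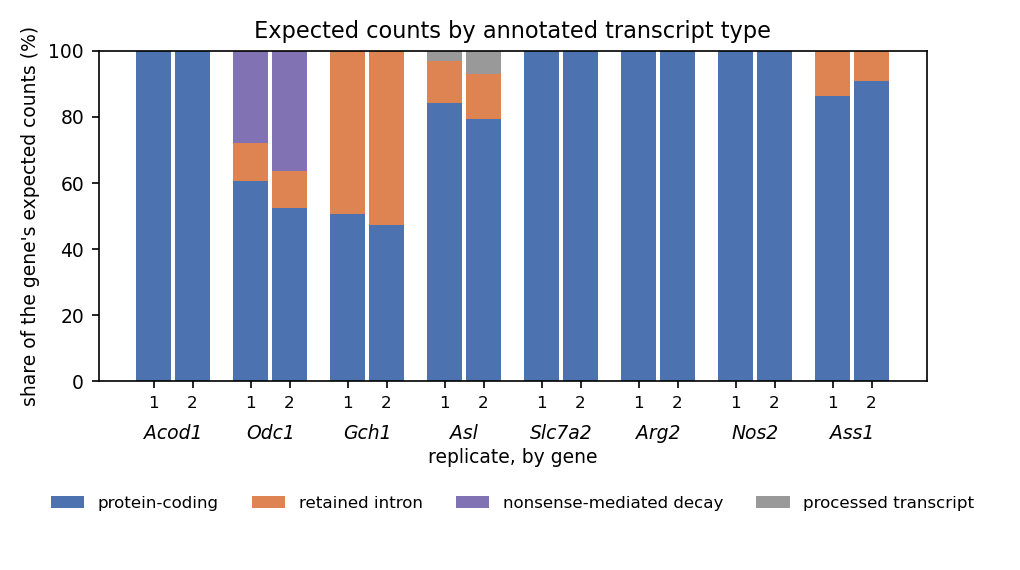
Share of the expected counts of each gene (%) by the annotated type of its transcripts, with 1 bar for each replicate and genes in falling order of mean TPM. Arg1 is left out because it had 2 counts in replicate 1 and 0 in replicate 2. About equal parts of the Gch1 bars are protein-coding and retained intron, and Odc1 carries both retained-intron and nonsense-mediated-decay transcripts.

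In Gch1 all of these counts fell on its 1 retained-intron transcript. There were 1874 expected counts in replicate 1 and 1045 in replicate 2, beside 1922 and 943 for its 1 protein-coding transcript. The retained-intron transcript is a single block of 3508 bases on chromosome 14 from 47158365 to 47161872, minus strand (mm10). It covers exon 4 of the 6 exons of the protein-coding transcript together with the intron sequence on both sides, and 3476 of its bases, 99.1%, lie outside those exons. The sequences around exon 4 (chr14:47158863-47158894, GENCODE M21) show what sets these forms apart, with the 32 bases of the exon in capitals and 24 bases on each side in lower case.
Gch1 protein-coding transcript: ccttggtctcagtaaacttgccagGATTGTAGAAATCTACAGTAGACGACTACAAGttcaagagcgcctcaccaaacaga
Gch1 retained-intron transcript: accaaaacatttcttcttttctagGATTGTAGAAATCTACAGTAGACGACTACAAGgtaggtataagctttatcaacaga
In the protein-coding transcript the exon is joined to the coding bases of exons 3 and 5. In the retained-intron transcript it is flanked by the intron ends, with ag before it and gt after it. Counts on this form may come from a retained-intron transcript or from RNA not yet spliced, and the tables cannot tell these apart. On protein-coding transcripts alone, Gch1 stood at 30.7 and 15.9 TPM and Odc1 had 20.9 and 19.3, so that Gch1 was the higher of the pair in replicate 1 and Odc1 in replicate 2. The pseudogene Gm18811, which lies within the first intron of Gch1 on the same strand, had 195 and 85.0 expected counts, and Gm49134 on the opposite strand had 39.0 in both libraries.

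**Figure D4:**
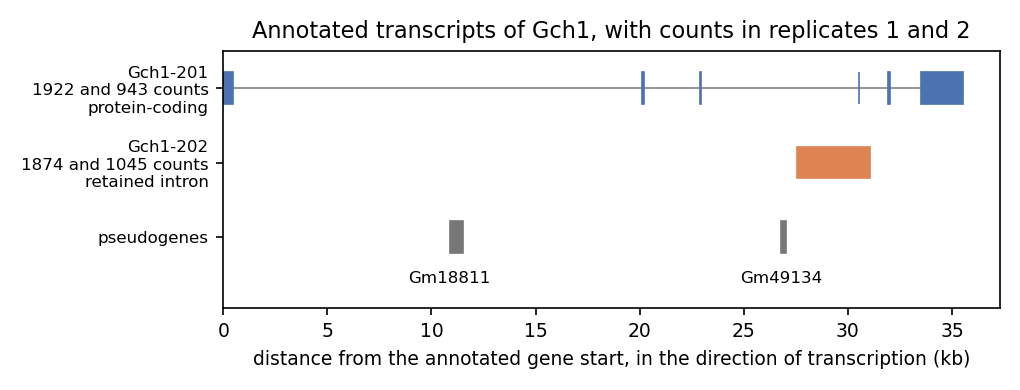
Annotated transcripts of Gch1 and the pseudogenes within its span, by distance from the gene start in the direction of transcription (kb). Blocks are exons, the line is the span of the protein-coding transcript, and the labels give expected counts in replicates 1 and 2, which are of similar size for that transcript and for the single block of the retained-intron form.

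Odc1 is annotated with nonsense-mediated-decay transcripts, of which Gch1 has none. These transcripts, whose reading frame ends early, took 27.9% and 36.3% of the expected counts of Odc1, nearly all on 1 transcript with 457 and 584. Its 5 retained-intron transcripts took 11.6% and 11.1%. The protein-coding transcript held 1018 and 891 expected counts. The protein-coding transcript thus held the largest share of counts in both libraries, 60.5% and 52.6%. By TPM, which corrects for length, it held 38.4% and 32.2%, and the transcripts of other types together 61.6% and 67.8%. The retained-intron transcripts are short, at 472 to 764 bases against 2208, so counts give them less weight than TPM does. The share of the decay class was larger in replicate 2 than in replicate 1. Odc1 as a whole was also higher in replicate 2 after normalisation, and a link between these was not tested.

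Slc7a2 is known for alternative exons that give transporters of different affinity for arginine. The 4 of its transcripts that held counts contain either an exon of 140 bases (chr8:40908056-40908195) or one of 137 bases (chr8:40908398-40908534), both coding, on the plus strand (mm10). They are printed to show how far the exons differ: of 140 aligned positions 84 are identical, or 60.0%, and capitals mark the bases that differ or have no partner.
Slc7a2 exon of 140 bases: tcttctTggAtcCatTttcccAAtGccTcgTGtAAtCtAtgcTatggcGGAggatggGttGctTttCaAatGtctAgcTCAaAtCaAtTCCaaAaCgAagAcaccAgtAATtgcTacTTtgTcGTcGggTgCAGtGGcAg
Slc7a2 exon of 137 bases: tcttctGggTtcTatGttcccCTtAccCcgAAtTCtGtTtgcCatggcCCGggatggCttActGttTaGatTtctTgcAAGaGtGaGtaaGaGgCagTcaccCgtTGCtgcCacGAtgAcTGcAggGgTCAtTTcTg
The transcript table deposited with the gene table put most counts on the 137-base exon, with 382 expected counts against 48.6 on transcripts with the 140-base exon in replicate 1 and 261 against 8.88 in replicate 2. The second transcript table gave 342 against 424 in replicate 1 and 302 against 298 in replicate 2. The 137-base form thus held 88.7% and 96.7% of the counts in one table, and 44.7% and 50.3% in the other. The choice of exon cannot be read from these data. The exons of one protein-coding Slc7a2 transcript are overlapped over 146 bases by the lincRNA gene Gm26584 on the opposite strand, which held 663 and 373 expected counts, more than Slc7a2 itself.

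The second transcript table changed the place of Nos2 in the order of mean TPM. Within single libraries of that table Gch1 also stood above Odc1 in replicate 1. Arg1 stood above Ass1 in replicate 2, at a TPM of 0.279 and 0.243. All 7 members with a mean of at least 50 counts had more estimated counts there than in the gene tables in both libraries, as did 99.0% of all such genes. TPM was nevertheless mostly lower there, for a reason that was not tested, with a median ratio of second over first of 0.475 in replicate 1 and 0.690 in replicate 2 over all these genes. Acod1 stood at 177 and 137 TPM there, Gch1 21.4 and 16.0, and Odc1 20.8 and 34.3. Nos2 was the only member higher there in both libraries, at 1.26 and 1.12 from 230 and 161 estimated counts, and it then stood above Arg2, at 1.15 and 1.02. There, 42.8% and 49.7% of the TPM of Nos2, but 8.69% and 9.92% of its counts, lay on the short processed transcript of the gene, to which the first transcript table assigned none.

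Other genes of these pathways were examined from lists of 75 genes, of which 50 reached 1 TPM in each library. Of all 22015 nuclear-encoded protein-coding genes 39.2% did so. In the list of citric acid cycle enzymes and of proteins that handle itaconate, 23 of 24 genes did so, and its median of log2(TPM + 1) was 2.92 ± 0.23 (SD, n = 2), against 0.32 ± 0.05 for all nuclear-encoded protein-coding genes. The highest were Sdha, a subunit of succinate dehydrogenase, at a TPM of 27.1 and 19.0, and the citrate synthase gene Cs at 22.5 and 19.0. Both were far below Acod1. Clybl, whose protein degrades citramalyl-CoA derived from itaconate, was the exception at 0.52 and 0.47.

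Genes of nitric oxide synthases other than Nos2 were near 0. Nos1 and Nos3, the neuronal and endothelial synthases, had 1 expected count each in replicate 1 and 0 in replicate 2. In that list of 9 genes 3 reached 1 TPM in each library, namely Nostrin at 3.48 and 2.00, Nosip at 2.42 and 1.79 and Nos1ap at 2.83 and 1.37. Ddah1, which breaks down an inhibitor of the synthases, and the guanylate cyclase subunits Gucy1a1 and Gucy1b1, which sense nitric oxide, had at most 2 counts in either library. Among 7 tetrahydrobiopterin genes 3 reached 1 TPM in each library. For both lists the count is near the 39.2% of all nuclear-encoded protein-coding genes. The highest of the 7 tetrahydrobiopterin genes were Pts, which acts just after Gch1, at 6.53 and 5.77, and the recycling enzyme Qdpr at 3.63 and 4.90. Gchfr, which encodes the feedback regulator of GTP cyclohydrolase 1, had 0 and 1 expected counts.

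Arginine transport was led by genes other than Slc7a2. Slc3a2, the heavy chain shared by several amino acid transporters, stood at 151 and 119 TPM, and the lysosomal arginine sensor gene Slc38a9 had 23.8 and 14.9. In all, 5 of 8 genes of that list reached 1 TPM in each library, beside 39.2% of all nuclear-encoded protein-coding genes. Slc7a1, which encodes a related cationic amino acid transporter, had 4.08 and 3.33, near the 3.10 and 1.89 of Slc7a2. Slc7a7 of the same list was above both, at 14.3 and 8.76. The liver urea cycle genes Cps1, Otc and Nags were at 0 counts in both libraries, which allows up to 0.142 CPM in replicate 1 and 0.192 CPM in replicate 2. Of 24 genes of ornithine, proline, creatine and polyamine metabolism 16 reached 1 TPM in each library, beside the same 39.2%. Sat1, which acetylates polyamines for export and breakdown, was the highest at 487 and 296, close to the level of Acod1. Azin1, an inhibitor of the antizymes that degrade ornithine decarboxylase, followed at 74.0 and 42.6, and Agmat had 1 and 0 expected counts.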

How the data were processed

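Total RNA of the nucleoplasmic fraction was sequenced in 2 libraries of 1 group. Per the file headers, the deposited tables were made on mm10 with GENCODE M21. The sources used here name no aligner, quantifier or strand setting. The authors deposited a gene table and a transcript table with expected counts, estimated and not normalised, and TPM, scaled by the authors per effective length, with interval bounds for TPM whose level is not stated, so that only their overlap was used. A second transcript table deposited by the authors held estimated counts and TPM, summed here per gene. Entries that name no annotated gene held 0.662% and 0.232% of counts and were left out of library sizes. Counts are not of independent molecules, so intervals and the floor of 3 counts cover counting error only.

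Counts were rounded, normalised by TMM (edgeR 4.0.16, R 4.3.3) and compared after 0.5 was added, for genes with a mean of at least 50. With 1 group no test was made and no p-value is given. The ratio was tested on simulated data. DESeq2 1.42.0 size factors, other thresholds, pseudocounts, units and tables were alternatives. Similar transcripts were sought with BLAST 2.17.0, at 95% identity over 200 bases. Other steps used numpy 2.4.6, pandas 2.3.3, scipy 1.17.1 and biopython 1.88. Motifs were sought in RefSeq promoters of GRCm38.p6, in which 4 of the 9 genes had an entry. Members and lists were chosen with earlier results of these data known. All 9 members are named, with the 2 highest genes of each pathway list, every gene of those lists under 3 counts in both libraries, and the 2 genes nearest in level to the 3 highest members. Malat1, Clybl, Slc7a1, Slc7a7, Nos1ap, Sdhb, Sdhc and the alternative-activation and endothelial markers were added after their values were seen. So were genes that overlap or resemble a member.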

Additional observations from a re-analysis of the deposited data

How the results depend on the processing

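Of 40 alternative values for the 6 summary results, 24 stayed within the spread between replicates, or within 1.5 times for counts, and no direction was reversed. The 24 include values that could not leave that spread. With 2 libraries, a median, difference or share from 1 library alone always lies within it. The number of members that reached 1 TPM in each library, 6, was 3 at a threshold of 10. The median member level, 1.78 on the log2(TPM + 1) scale, was 1.36 in the second transcript table, 3.59 with TPM rescaled over protein-coding genes, 3.92 in CPM, 1.34 with 0.1 added in place of 1, and 4.23 over members with a TPM of at least 1 alone. Acod1 exceeded Nos2 by 7.48, and by 6.16 in the second table, 8.32 with rescaled TPM and 8.50 with 0.1 added. Arg2 exceeded Arg1 by 1.43, and by 0.86, 3.02 and 3.87 in the same order and 1.86 in CPM. Apart from the second table, where the cause was not tested, these settings change the scale or the members counted by construction. Without a filter on counts, 1 member (Arg1, 2 against 0 counts) passed 2-fold in place of 0. The median share of TPM on transcripts of other types, 14% over 6 members, was 21.5% in the second table and 9.09% of expected counts, and the cause was not tested. The member median of 14% was thus below that of the typical gene by TPM. Of the 6 members, however, Acod1, Arg2 and Slc7a2 have no annotated transcript of another type, so their shares of 0 were fixed. By TPM, Asl had 22.2% in replicate 1 and 33.8% in replicate 2, Gch1 43.1% and 46.3%, and Odc1 61.6% and 67.8%. Over 8616 protein-coding genes that reached 1 TPM in each library the median was 26.6% and 25.4% of TPM, and 11.4% and 11.0% of expected counts. Leaving out replicate 1 or 2 gave 6 to 7 members, a median of 1.53 to 2.04, differences of 7.26 to 7.70 and 1.28 to 1.57, and a share of 11.1% to 16.9%. On protein-coding transcripts alone, a setting added after the data were seen, the first 3 results stayed at 6, 1.78 and 7.48. Acod1, Nos2 and the median gene Slc7a2 had no TPM on other types there, so their own values could not change. All 18 values of single members moved by more than their SD under rescaling or the second table. Depth limits Arg1, Ass1, Arg2 and Nos2. No paired analysis was possible because there is 1 group.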

Other observations

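Markers of alternatively activated macrophages, the state for which Arg1 is best known in mice, were unequal. The mannose receptor gene Mrc1 stood at 268 TPM in replicate 1 and 197 TPM in replicate 2. Chil3 had 2.92 and 1.56, Ccl24 1.27 and 0.72, and Mgl2 0.53 and 0.25. Retnla had 0 counts in both libraries and Ccl17 had 1 and 0. Within the citric acid cycle list, Sdhc was higher in replicate 2, with a log2 ratio of replicate 1 over replicate 2 of -0.94 after normalisation, while Sdha was at 0.04 and Sdhb at 0.29.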
